A study of Homo sapiens with 12 samples.

Results

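MYC, its partner MAX and 8 further genes of the MAX network were examined as carriers of N6-methyladenosine (m6A) in BT474 breast cancer cells. The 10 genes were chosen by name, namely MYC, MAX, MLX, MLXIP, MGA, MNT, MXD1, MXI1, MXD3 and MXD4, among 8353 genes with at least 1 m6A peak in the series. BT474 is an ERBB2-amplified human breast cancer cell line, and the line compared with it, labelled BT474.TtzmR or BT474-HR, is a derivative resistant to the ERBB2 antibody trastuzumab (Herceptin). The labels describe culture of both lines in the same medium with serum and do not say whether trastuzumab was present, or whether the resistant line is a clone or a pool. The assay was MeRIP-seq, in which RNA fragments pulled down with an antibody against m6A (IP) are sequenced beside input RNA. There were 3 IP and 3 input libraries per line, and the results rest on the 6 IP peak lists and on the table in which the authors compared the lines. The labels do not state whether replicates were separate cultures. A permutation p here therefore reflects library-to-library spread that may be technical.

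MYC is a transcription factor that drives growth and proliferation and binds E-box DNA only as a dimer with MAX. MAX also pairs with MNT, MGA and the MXD proteins (MXD1, MXI1, MXD3, MXD4), which repress E-box genes and so oppose MYC. MLX is the parallel hub: it pairs with MLXIP (MondoA), which senses glucose-derived metabolites, and with some of the repressors. MYC messenger RNA is short-lived, and the end of its coding sequence holds a stretch known as the coding region instability determinant, to which IGF2BP proteins, described as m6A readers, bind.

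Across the series, the lists held between 26028 and 32638 rows, 1 row per transcript isoform, and the resistant lists were the longer ones. Covered exonic bases summed over all genes were 1.19 times as high in resistant as in sensitive libraries. Of 8 luminal and epithelial markers of BT474, 6 had a peak in all 6 libraries and 0 had none; ESR1, the oestrogen receptor gene, had a peak in 1 library. Of 7 markers of other cell types, 5 had no peak, and COL1A1, a fibroblast collagen gene, had one in all 6. Read depth per library is unknown, and the input libraries' RNA levels were not analysed here, so m6A and RNA amount could not be told apart.

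Of the 10 network genes, 9 had a peak in at least 1 library and 5 had one in all 6: MYC, MAX, MLXIP, MGA and MXD3. Over all genes with a peak, 55.9% had one in all 6 libraries. MXD1 had a peak in 5 libraries, MLX in 4, MNT in 2 and MXD4 in 2. MXI1 had no peak in any list, under its own symbol or an older one. The number of network genes with a peak was 8, 7 and 6 in resistant replicates 1, 2 and 3 and 7, 9 and 6 in sensitive replicates 1, 2 and 3, so the lines overlapped.

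Rows of the 6 lists that shared an exonic base on a strand were joined into sites, numbered here from 5′ to 3′ within each gene. The network genes held 26 sites, of which 8 were present in all 6 libraries and 10 in 1 library. Over all genes, 33.4% of such sites were in all 6 libraries and 29.5% in 1. The 8 constant sites lay on MYC, MAX, MLXIP (2 sites), MGA (3 sites) and MXD3. The 5 dedicated repressor genes (MNT, MXD1, MXI1, MXD3 and MXD4) held 11 sites with 1 constant, and the other 5 genes 15 sites with 7 constant. MGA, which also represses E-box genes, was counted among the latter and held 3 of those 7, so the contrast depends on this grouping. Of the constant sites, 5 touched the 3′ UTR in at least 1 isoform and 3 lay in coding sequence alone, as the authors annotated them. A single site, on MAX, touched a 5′ UTR.

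**Figure D1:**
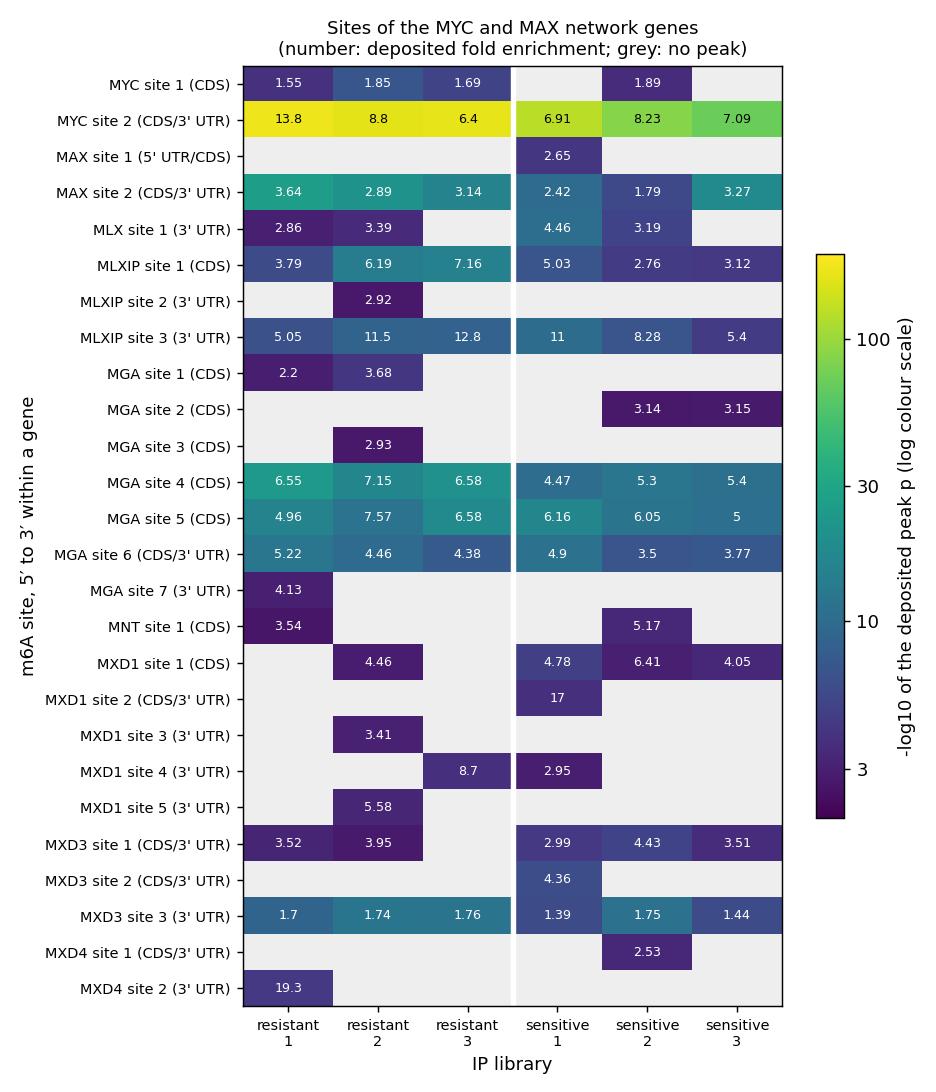
Sites of the network genes (rows) in the 6 IP libraries (columns). The colour gives −log10 of the deposited peak p on a log colour scale, the number is the deposited fold enrichment of the row with the smallest p, and grey means no peak. The row of MYC site 2 stands apart in all 6 libraries, and the MXD1, MXD4 and MNT rows are mostly grey.

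By peak p, MYC had the smallest value of the network in all 6 lists. Its main site ran from the coding sequence into the 3′ UTR (site 2; chromosome 8, plus strand, 128752902 to 128753674, 773 bases). The fold enrichment, which is the authors' value for each peak and describes peaks within its list, was 13.8, 8.80 and 6.40 in resistant replicates 1, 2 and 3. In sensitive replicates 1, 2 and 3 it was 6.91, 8.23 and 7.09. The folds given for a site are those of its isoform row with the smallest p in the list. The highest fold of any row at MYC site 2 was 14, 9.13 and 6.64 in the resistant libraries. In the sensitive libraries it was 7.9, 16.3 and 7.09. The deposited peak p was 1e-178, 1e-167 and 1e-170 in the resistant lists and 1e-124, 1e-86 and 7.94e-72 in the sensitive lists. These values are not compared between lists, since depth is unknown. By smallest p, MYC ranked 108 of 6816, 94 of 6516 and 89 of 6746 genes in the resistant lists and 153 of 6391, 231 of 6287 and 294 of 5982 in the sensitive lists. Lists of different length cannot show a change by rank, but in each list MYC stood above at least 95.1% of the genes.

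A second MYC site lay upstream in the coding sequence (site 1; chromosome 8, 128750988 to 128751141). It was listed in all 3 resistant libraries, with folds of 1.55, 1.85 and 1.69, and in sensitive replicate 2, with a fold of 1.89. Its smallest p was 1.55e-07, far above that of site 2. Site 1 covered 94, 154 and 124 bases in the resistant libraries and 0, 94 and 0 in the sensitive libraries, which overlap (exact permutation test, two-sided, p = 0.2).

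The length of MYC transcript under peaks differed without overlap over both sites together, but not past the adjusted test, which no gene passed. Neither site alone separated the lines. Site 2 covered 714, 743 and 773 bases in the resistant libraries. In the sensitive libraries it covered 655, 687 and 714, so both lines held a library at 714 (exact permutation test, p = 0.2). Over both sites, 808, 897 and 897 exonic bases lay under peaks in resistant replicates 1, 2 and 3 and 655, 781 and 714 in sensitive replicates 1, 2 and 3. The lowest resistant library stood above the highest sensitive one. The means were 867 ± 51.4 (SD, n = 3) and 717 ± 63.0 (SD, n = 3), a difference of 151 bases with p = 0.1 in the exact permutation test, the smallest p that 3 against 3 can give, and p = 0.447 after Benjamini-Hochberg adjustment over all genes. That adjusted p was the smallest of any gene, so the adjusted test could not single out a gene. Divided by the covered bases of the whole library, a scaling chosen after seeing the data, the values were 725.3, 867.4 and 808.3 against 670.1, 866.1 and 827.4, which overlap. With peaks of p below 1e-05 alone, both lines held a library at 714 bases, and MAX and MLXIP were then the network genes without overlap (both higher; 18.5% of all genes higher and 4.02% lower). On the longest listed isoform, 2345 bases long, the covered share was 36.8% ± 2.22 in resistant and 30.4% ± 2.55 in sensitive libraries (SD, n = 3 each). The median gene's share lay between 10.3% and 11.8% in the 6 lists, and MYC exceeded 84.9% to 92.4% of genes.

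MYC has no row in the authors' deposited comparison table. Of the 4670 genes with a peak in all 6 libraries, 1557 (33.3%) have none there either. Among the other genes with a peak in all 6, those whose highest fold stood at the percentiles nearest to MYC's over the 6 lists were ENTPD1, PTGER4, RBM33, TIGD5 and TXLNA. Their mean absolute difference from MYC was 2.34, 3.31, 3.35, 4.23 and 4.80 percentile points over 6 libraries, the smallest of 4669 genes searched.

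MAX, the obligate partner of MYC, carried its main site in the last coding bases and the 3′ UTR (site 2; chromosome 14, minus strand, 65542664 to 65543318). On the longest isoform the same bases were annotated as 3′ UTR alone. Its fold enrichment was 3.64, 2.89 and 3.14 in resistant replicates 1, 2 and 3 and 2.42, 1.79 and 3.27 in sensitive replicates 1, 2 and 3. In resistant replicate 1 another isoform row of the site had a fold of 6.5. The site covered 586, 616 and 612 bases in the resistant libraries and 520, 326 and 488 in the sensitive libraries, with no overlap (exact permutation test, p = 0.1; adjusted over all sites, p = 0.722). After division by the library total the values ran from 526.0 to 595.7 and from 361.5 to 565.5, which overlap. In the authors' deposited table, the 5 rows over this site had folds of 1.25 to 1.30 with deposited p from 4.68e-05 to 0.00178, below the fold of 1.5 required here for a call. The median fold of all rows in that table was 1.25. MAX site 1, at the 5′ UTR, was listed in sensitive replicate 1 alone (chromosome 14, 65569057 to 65569192), with a peak p of 7.59e-05.

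MLXIP was the network gene with a region called higher in resistant cells. Its site 1 lay in the coding sequence (chromosome 12, plus strand, 122617960 to 122618421) and covered 451, 372 and 372 bases in resistant replicates 1, 2 and 3 and 350, 230 and 222 in sensitive replicates 1, 2 and 3. Every resistant value exceeded every sensitive value (398 ± 45.6 against 267 ± 71.7, SD, n = 3 each; exact permutation test, p = 0.1; adjusted over all sites, p = 0.722). Its fold enrichment was 3.79, 6.19 and 7.16 in resistant and 5.03, 2.76 and 3.12 in sensitive libraries. In resistant replicate 1 another isoform row of the site had a fold of 6.89. For this site the authors' deposited table lists 1.52 on 1 isoform (deposited p = 0.00148, adjusted over all regions 0.00996), 1.42 on another (deposited p = 0.0126) and 1.28 on the longest (deposited p = 0.0234). Thus 1 of its 3 rows was called, and a fold of 1.52 divided by the median fold of 1.25 gives 1.22, below the limit. After division by the library total the covered bases of site 1 ran from 335.2 to 404.9 and from 255.1 to 358.1, which overlap.

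The other constant MLXIP site lay far into the 3′ UTR of the longest isoform (site 3; chromosome 12, 122629285 to 122629555). Its fold enrichment was 5.05, 11.5 and 12.8 in resistant and 11, 8.28 and 5.40 in sensitive libraries. Resistant replicate 1, with 151 bases, covered less of it than any other library (211 to 241 bases), and the lines overlapped (p = 1 in the exact permutation test). This site has no row in the comparison table. Over the whole gene, 602, 674 and 613 bases were covered in resistant and 561, 471 and 433 in sensitive libraries, again without overlap (exact permutation test, p = 0.1, adjusted over all genes 0.447). Divided by the library total these overlapped, at 540.4 to 651.8 against 501.8 to 574.0.

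MLX, the hub of the parallel branch, had a single site in the 3′ UTR (chromosome 17, plus strand, 40724808 to 40725198). It covered 62, 92 and 0 bases in resistant replicates 1, 2 and 3 and 302, 331 and 0 in sensitive replicates 1, 2 and 3. Replicate 3 of both lines had no peak, so the groups overlapped (exact permutation test, p = 0.4). The peak p was 0.000955 and 0.000363 in resistant replicates 1 and 2 and 3.16e-11 and 9.33e-06 in sensitive replicates 1 and 2. Its 3 rows in the authors' deposited table had folds of 0.788 to 0.798, with deposited p of 0.0631 to 0.0741, and 0 of them were called.

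MGA, a very large protein that pairs with MAX and anchors the repressive PRC1.6 complex, had the most peaks. Its longest listed isoform has 12042 bases, and its 7 sites covered 1650, 1914 and 1760 bases in resistant and 1711, 1460 and 1433 in sensitive replicates 1, 2 and 3. Sensitive replicate 1 lay among the resistant libraries (1775 ± 133 against 1535 ± 153, SD, n = 3 each; exact permutation test, p = 0.2). The mean difference of 240.0 bases turned to -37.4 after division by the library total. As a share of that isoform, 14.3% ± 1.15 was covered in resistant and 12.0% ± 1.78 in sensitive libraries (SD, n = 3 each), less than the share of MYC in every library.

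Sites 4, 5 and 6 of MGA were the constant ones. Site 4 (chromosome 15, plus strand, 42042091 to 42046728, across an exon junction) had folds of 6.55, 7.15 and 6.58 in resistant and 4.47, 5.30 and 5.40 in sensitive libraries. In resistant replicate 2 another isoform row of site 4 had a fold of 9.07. Sites 5 and 6 were neighbours, at 42058363 to 42059019 and 42059025 to 42059625, and site 6 reached the 3′ UTR in some isoforms. The folds of site 5 were 4.96, 7.57 and 6.58 against 6.16, 6.05 and 5.00, and those of site 6 were 5.22, 4.46 and 4.38 against 4.90, 3.50 and 3.77. The 6 rows over site 4 in the authors' deposited table had folds of 1.13 to 1.15 with deposited p of 0.0813 to 0.117, and the 9 other MGA rows had 0.712 to 0.826; 0 were called.

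The remaining MGA sites were in 1 or 2 libraries. Site 1 was in resistant replicates 1 and 2 and site 2 in sensitive replicates 2 and 3, with p between 7.24e-05 and 0.00186. Sites 3 and 7 were in resistant replicates 2 and 1, respectively.

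MXD3, a repressor linked to proliferating cells, had lower covered bases in every resistant library, again not past the adjusted test, which no gene passed. The values were 276, 270 and 210 in resistant replicates 1, 2 and 3 and 666, 691 and 336 in sensitive replicates 1, 2 and 3. The highest resistant library stood below the lowest sensitive one (252 ± 36.5 against 564 ± 198, SD, n = 3 each; exact permutation test, p = 0.1, adjusted over all genes 0.447). This direction was kept after division by the library total, at 189.2 to 261.1 against 389.4 to 766.3. On the longest listed isoform alone the lines overlapped, with 7.93%, 7.93% and 9.26% covered in resistant and 6.61%, 13.3% and 7.93% in sensitive libraries. The difference lay in site 1 (chromosome 5, minus strand, 176734437 to 176737458 across an exon junction), which covered 96, 90 and 0 bases against 303, 481 and 156. Site 2 was in sensitive replicate 1 alone (213 bases). The constant site 3, in the 3′ UTR of 1 isoform (176733486 to 176733695), covered 180, 180 and 210 bases against 150, 210 and 180, which overlap.

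The peaks of MXD3 site 1 were weak, with p from 8.13e-06 to 0.0017. Among peaks of p below 1e-05 the values of MXD3 were 180, 180 and 210 against 363, 484 and 180. These overlap, since resistant replicate 3 (210) lay above sensitive replicate 3 (180). MXD3 site 1 has no row in the comparison table. Site 3 had a fold of 1.11 in the authors' deposited table (deposited p = 0.0468), below the limit for a call. The low fold enrichment of site 3, 1.39 to 1.76 in all 6 lists, lay below the median peak fold of every list (3.39 to 3.67).

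Of the 10 network genes, 2 had covered bases higher in every resistant library (MYC and MLXIP) and 1 had them lower (MXD3). Over all genes with a peak, 17.9% were higher and 4.47% lower in this way. Of the 26 sites, 2 were higher and 1 lower, beside 11.0% and 2.81% of all sites. The share of higher genes among the network genes is near that background. Division by the library total left MXD3 alone, beside 9.95% of all genes higher and 13.5% lower. With an equal number of peaks taken from each list, the values of MYC were as before, and MYC, MLXIP and MXD3 were again the genes without overlap (15.5% of all genes higher, 5.51% lower). In same-numbered pairs these 3 genes kept their sign in all 3 pairs, beside 25.8% of all genes higher and 7.47% lower. Without resistant replicate 1, MGA and MXD1 were also higher (22.4% of all genes higher, 6.73% lower). Without sensitive replicate 1, MAX and MGA were (25.5% and 6.11%), and without sensitive replicate 3, MLX was also lower (21.1% higher, 8.08% lower). The network genes without overlap were MYC, MLXIP and MXD3 without resistant replicate 2 (26.3% and 6.03% of all genes), resistant replicate 3 (23.2% and 6.80%) or sensitive replicate 2 (22.4% and 7.18%).

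**Figure D2:**
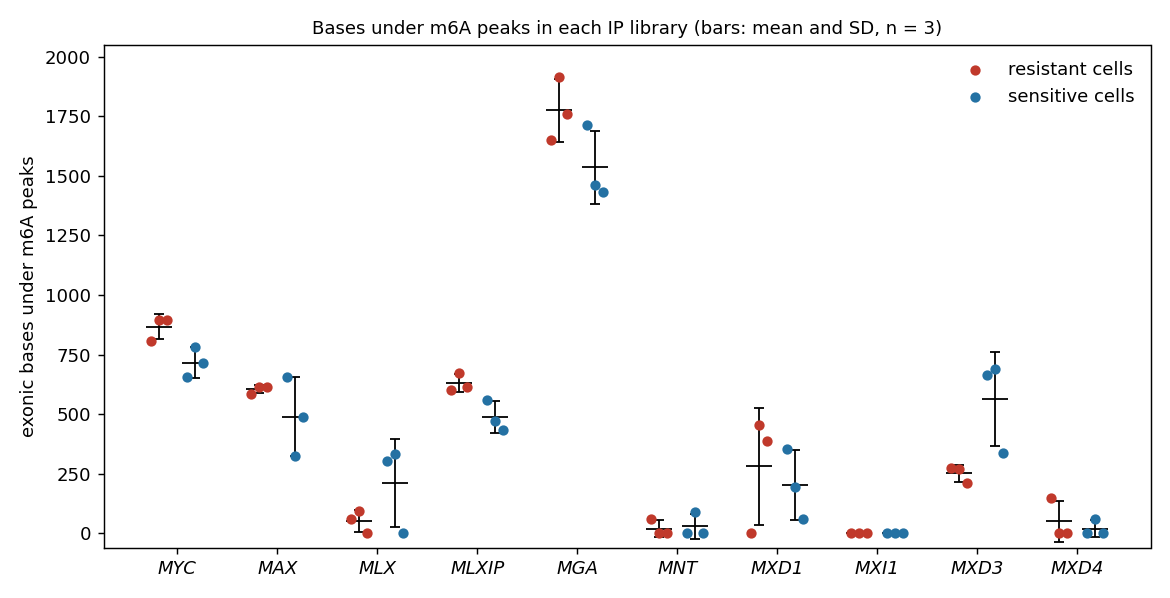
Exonic bases under m6A peaks of each network gene in the 6 IP libraries, on a linear axis. Points are libraries, and black bars are the mean and SD (n = 3). The resistant points of MYC and MLXIP all lie above the sensitive ones and those of MXD3 all below, while the groups overlap for the other genes.

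MXD1, a repressor induced as cells differentiate, was the network gene with a region called lower in resistant cells. Its site 1, in the coding sequence over several exons (chromosome 2, plus strand, 70142532 to 70165333), had a peak in all 3 sensitive libraries and in resistant replicate 2. It covered 0, 243 and 0 bases in resistant replicates 1, 2 and 3 and 203, 196 and 61 in sensitive replicates 1, 2 and 3, so that resistant replicate 2 had the most of all (exact permutation test, p = 0.4). The region over this site had, in the authors' deposited table, folds of 0.595 (deposited p = 0.00759, adjusted over all regions 0.0322), 0.665 (deposited p = 0.0224, adjusted 0.0656) and 0.673 (deposited p = 0.0479) on 3 isoforms. The first 2 were called lower, and the third stood just above the limit for a call, the inverse of 1.5.

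The 3′ UTR sites of MXD1 were each in 1 or 2 libraries. Sites 3 and 5 were in resistant replicate 2 alone, and site 4 covered 389 bases in resistant replicate 3 and 61 in sensitive replicate 1. A 3′ UTR region over site 3 is listed at 2.01 in the authors' deposited table (deposited p = 0.0759) and was not called. Over the whole gene, 0, 455 and 389 bases were covered in resistant and 355, 196 and 61 in sensitive libraries. The lines overlapped (exact permutation test, p = 0.7), and without resistant replicate 2 the mean difference changed from 77.3 to -9.5. Resistant replicate 1 had no MXD1 peak at all.

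MNT and MXD4 were seen in isolated libraries. MNT, the most widely expressed MAX-dependent repressor, had a coding site (chromosome 17, minus strand, 2290734 to 2290824) in resistant replicate 1 (61 bases) and sensitive replicate 2 (91 bases), with peak p-values of 0.00224 and 0.000447. MXD4 had a 3′ UTR site in resistant replicate 1 (chromosome 4, 2249159 to 2249308) and a site at the end of the coding sequence in sensitive replicate 2 (2252230 to 2252290). The fold of 19.3 at the former was the highest of any network gene and had a peak p of 4.68e-05. The same fold stood in 167 other rows of 120 other genes in that list. The fold of 17.0 at MXD1 site 2, in sensitive replicate 1, likewise recurred in 189 other rows of 125 other genes.

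By smallest peak p within a list, the order of the network genes by median percentile was MYC (98.0), MAX (70.0), MGA (68.4), MXD3 (52.9), MLXIP (48.0), MLX (20.3, 4 lists), MXD4 (15.7, 2 lists), MXD1 (10.2, 5 lists) and MNT (5.42, 2 lists). MYC, with 95.1 to 98.7 over the 6 lists, did not overlap any other gene. MAX, at 34.5 to 78.6, overlapped MGA, at 59.6 to 76.9, and MXD3, at 34.5 to 60.2, overlapped MLXIP, at 26.4 to 65.3. MNT, at 1.47 to 9.37, and MXD4, at 10.1 to 21.4, lay below every value of MAX, MGA, MXD3 and MLXIP. By highest fold, the median percentile was 76.8 for MLXIP (56.3 to 82.3) and 76.1 for MYC (61.0 to 86.6), which were not separated, and 24.2 for MAX (3.24 to 59.5).

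**Figure D3:**
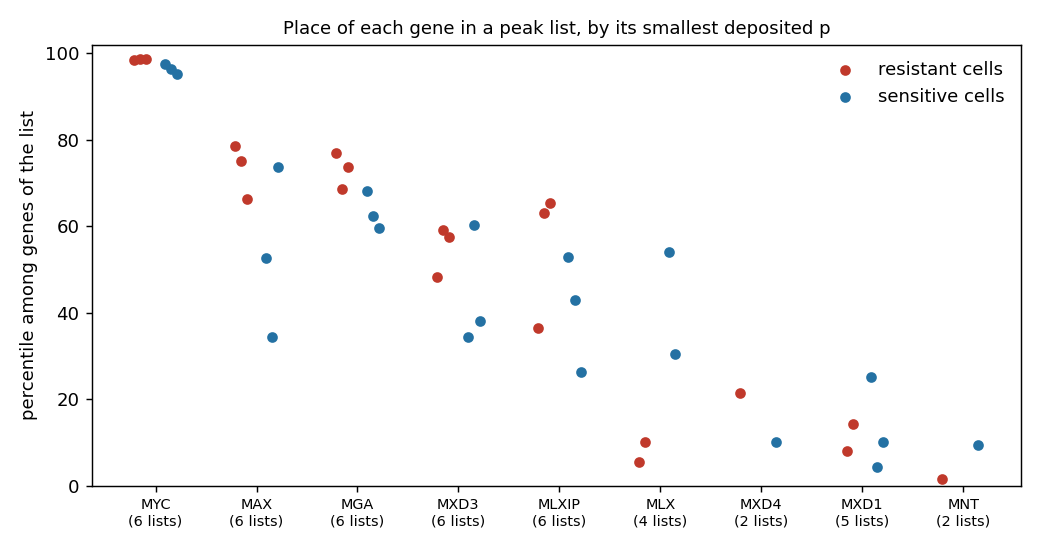
Percentile of each network gene among the genes of a peak list, by its smallest deposited p, with 1 point per IP library in which the gene had a peak. MYC lies between 95.1 and 98.7 in all 6 lists, and every point of the other genes lies at or below 78.6.

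In the comparison of the lines, 9 of the 10 network genes had rows in the authors' deposited table, 42 rows in 17 merged regions. A row was called at a deposited p under 0.05 with a fold of 1.5 or more, or its inverse or less. By this rule MLXIP had a region higher (1 of 9 genes) and MXD1 had a lower one (1 of 9). Over all 5553 genes compared, 14.2% had a region called higher and 2.76% had a lower one. With Benjamini-Hochberg adjustment both genes remained called, beside 8.84% and 1.31% of all genes, as they did at p below 0.01 (7.96% and 0.972%) and with a peak overlapping in 2 of 3 libraries of a line (11.5% and 2.05%). With folds divided by their median MXD1 alone was called (5.26% of all genes higher, 7.35% lower), and with at least 0.5 of the region under a peak in 2 of 3 libraries MLXIP alone (9.24% and 1.53%). With every row of a merged region required, a rule added after seeing the data, 0 network genes were called (10.2% and 2.00%). In the authors' deposited table, 12 of the 42 rows (28.6%) had a deposited p below 0.05, beside 45.2% of all rows. This share depends on the number of isoform rows per gene. MGA alone held 15 of the 42 rows, and its smallest deposited p was 0.0813. Of the 9 genes, 4 had a median fold above 1 and 5 below, and the median of these gene medians was 0.805. That value is the median of MGA, for which 9 of 15 rows lay below 1 and 7 had no peak beneath them. The 6 MGA rows over its constant site 4 had folds above 1. No row of MXI1 (median below 1) or MXD4 (median above 1) had a peak beneath it. For all genes in the authors' deposited table, 73.6% had a median fold above 1, and the median of gene medians was 1.25 (the median over rows is 0.32 on the log2 scale).

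Many network regions of that table had no peak beneath them. No peak of any library overlapped 14 of the 42 rows (33.3%), beside 17.7% of all rows. These rows formed 6 merged regions, and 7 of them were isoform rows of 1 MGA region. For MXI1, in the authors' deposited table, all 4 rows were of this kind: a 3′ UTR region at chromosome 10, 112044798 to 112045097, had folds of 0.716 to 0.740 (deposited p from 0.0617 to 0.0724), and a region over the 5′ UTR had 1.38 (deposited p = 0.396). In the authors' deposited table, the MXD4 5′ UTR region had the largest fold of the network, 2.91, with deposited p = 0.272. MNT's 3 rows in the authors' deposited table had folds of 1.98, 0.580 and 0.745, with deposited p of 0.106 to 0.274. The row at 0.745 did have a peak over it, in 1 resistant and 1 sensitive library. Of the 8 constant sites, 4 overlapped a compared region, namely those of MAX and MXD3, MLXIP site 1 and MGA site 4.

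**Figure D4:**
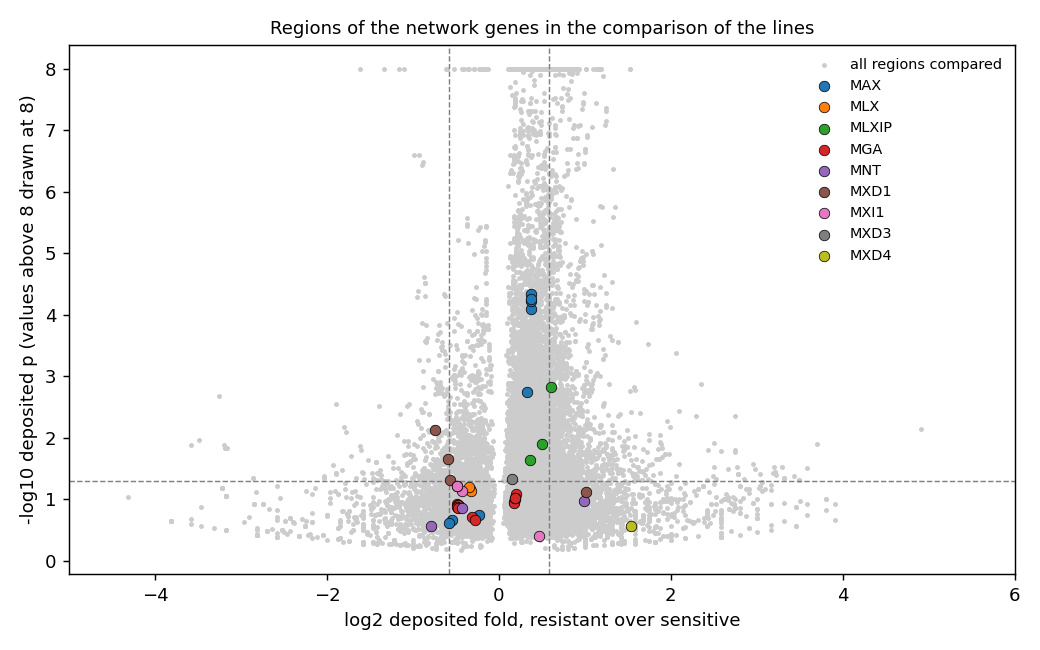
Deposited fold (log2, resistant over sensitive) against −log10 of the deposited p for all 17301 compared regions (grey) and the 42 rows of the network genes (coloured). Dashed lines mark the limits for a call, and points beyond the upper end of the vertical axis are drawn at it. A single MLXIP row lies in the upper right field and 2 MXD1 rows in the upper left.

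Genes that act with the network were read from 8 lists of 136 genes in all. Of the 67 compared, 11 had a region called higher (16.4%) and 3 had a lower one (4.48%), both near the shares over all genes given above. Of 18 MYC cofactors, 10 were compared, 4 were called higher and 1 lower, beside 14.2% and 2.76% of all genes. The acetyltransferase genes EP300 and CREBBP are listed in the authors' deposited table at 1.68 (deposited p = 0.0372) and 1.55 (deposited p = 0.0363), and EP400, part of the TIP60 complex, at 1.58 (deposited p = 0.0380). Of their rows, 1 of 4, 1 of 3 and 2 of 21 were called, respectively. The authors' deposited table gives 0.476 (deposited p = 0.0257) for CDK9, the kinase of the elongation factor P-TEFb. A peak lay over that region in 1 resistant and 1 sensitive library. With Benjamini-Hochberg adjustment over all regions, 0 of these cofactors remained called, beside 8.84% of all genes higher and 1.31% lower.

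Of 22 genes of MYC protein turnover, 11 were compared, 4 were called higher and 1 lower, beside 14.2% and 2.76% of all genes. With Benjamini-Hochberg adjustment 3 were higher and 0 lower, beside 8.84% and 1.31% of all genes. With folds divided by their median 1 was higher and 2 were lower, beside 5.26% and 7.35%. GSK3A, a kinase of the family that marks MYC for degradation, is given at 1.87 (deposited p = 2.82e-06) by the authors' deposited table. FBXW7, the ubiquitin ligase subunit that recognises phosphorylated MYC, and FBXO28, another ligase subunit, are listed in the authors' deposited table at 1.5 (deposited p = 0.0145) and 1.53 (deposited p = 0.000562). The authors' deposited table gives 0.626 (deposited p = 0.0186) for STUB1, a chaperone-linked ubiquitin ligase, a call lost with adjustment over all regions (adjusted p = 0.0582). Peaks lay over that region in 3 sensitive libraries and 0 resistant ones.

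Of 14 genes listed around MGA, from PRC1.6 and related factors, 7 were compared and 2 were called higher, beside 14.2% of all genes. With Benjamini-Hochberg adjustment 1 was called higher (BCOR, not taken here as a PRC1.6 subunit), beside 8.84% of all genes. The corepressor BCOR had all 5 rows called in the authors' deposited table, the strongest at 1.71 (deposited p = 0.000316). TFDP2, a dimer partner of E2F factors, had 1 of 4 called in the authors' deposited table, at 2.16 (deposited p = 0.0427), and this call was lost with adjustment over all regions. Of 29 transcripts known as MYC targets, 14 were compared, 0 were called higher and 1 lower, beside 14.2% and 2.76% of all genes. That gene was prohibitin (PHB), given at 0.544 (deposited p = 0.00891) by the authors' deposited table, with 2 of 4 rows called. A peak lay over that region in 0 resistant libraries and 1 sensitive one. In the list of MYC paralogs and other E-box binding genes, 1 of 5 compared was called higher, beside 14.2% of all genes. It was BHLHE41, a circadian repressor, given at 3.16 (deposited p = 0.0347) by the authors' deposited table. No peak lay beneath it. None was called among 8 SIN3 corepressor genes, 6 glucose response genes and 6 genes of MYC mRNA binding and m6A reading, beside the same shares over all genes. No peak was listed for IGF2BP1, IGF2BP2 or IGF2BP3 in any of the 6 lists.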

How the data were processed

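Members, gene lists and tests were chosen with earlier results of these data known. Per the file headers, the authors deposited for each peak a fold enrichment (a ratio) with its p-value and, for each compared region, a linear fold of resistant over sensitive cells with its p-value; whether these were adjusted is not stated. The submitters' processing notes name HISAT2; for the peak caller and the genome build, the entry is: not given in the sources used here. The positions are not those of GRCh38: the first listed peak overlapped the same-named gene of that build for 843 of 7637 genes and for 1 of 9 network genes. Lists s1 to s3 were read as the sensitive libraries of the same number, the HR lists as the resistant ones.

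Positions count from 1. Covered bases per gene and library were compared with an exact two-sided permutation test over 8353 genes. A region was called at a deposited p under 0.05 with a fold of 1.5 or more, or its inverse or less. Where rows of a site tied on p, the fold of the first isoform by identifier was taken. Named genes were all members, up to 4 called genes per list by smallest p, and the 5 nearest to MYC. Depth is unknown; no sequence is printed, since no genome of the files' build was used here. Same-numbered libraries did not deviate together (correlations -0.05, -0.067 and -0.1). The interval code was tested on simulated data. Python 3.11.15 and pandas 2.3.3 were used.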

Additional observations from a re-analysis of the deposited data

How the results depend on the processing

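The peak lists give no depth, so what depth adds to covered bases is unknown. An equal number of peaks per list left MYC, MLXIP and MXD3 without overlap. That setting does not equalise depth and left every MYC value unchanged, so it cannot show what depth adds. The count of network genes with a peak stayed within 6 and 9 over all alternatives. The count of network genes without overlap between the lines was 3; it ran from 3 to 5 over libraries left out (without resistant replicate 1, MGA and MXD1 joined the higher genes; without sensitive replicate 1, MAX and MGA did; without sensitive replicate 3, MLX joined the lower ones) and was 1 with covered bases as a share of the library total, a setting added after seeing the data, which left MXD3. With peaks of p below 1e-05 it was 2, MAX and MLXIP. Pairing same-numbered libraries as a replicate block gave 3 genes with the same sign in all 3 pairs (MYC, MLXIP and MXD3, sign-flip p = 0.25, the smallest that 3 pairs allow); in deviations from the group means, no library correlated best with its own number.

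Mean differences in covered bases that changed sign were those of MGA under the library total (-37.4), MNT (-10.0, and from -30.3 to 20.3 over libraries left out), MXD1 (77.3, and from -9.5 without resistant replicate 2 to 218) and MXD4 (29.7, and from -20.3 without resistant replicate 1 to 54.7). The count of network genes called higher was 1, and 0 with folds divided by their median or with every row of a merged region required. The count called lower was 1, and 0 where a peak had to cover at least 0.5 of the region in 2 of 3 libraries, or with every row required; the other alternatives left both at 1. Of the 67 pathway genes compared, 11 were called higher, 4 after Benjamini-Hochberg adjustment and 3 with folds divided by their median. The shares over all genes were 14.2%, 8.84% and 5.26%. Under the same settings 3, 1 and 10 were called lower, beside 2.76%, 1.31% and 7.35% of all genes. The causes of these shifts were not tested.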
